A study of Mus musculus with 4 samples.

Results

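Matrix metalloproteinases are zinc enzymes that cut collagen, elastin and other matrix and cell-surface proteins, and the tissue inhibitors of metalloproteinases (TIMPs) bind and block them. Some act as soluble enzymes, such as the neutrophil collagenase Mmp8, the gelatinase Mmp9 and the macrophage elastase Mmp12, while Mmp14 and Mmp15 are anchored in the cell membrane. The genes described are Mmp8, Mmp9, Mmp12, Mmp14, Mmp15, Mmp19, Timp1, Timp2, Timp3 and the procollagen-trimming protease Adamts14, 10 of the 20640 genes in the tables. They were chosen by name, with earlier results of these data known. Their values were compared between irradiated and mock-treated mouse lungs in endothelium, fibroblasts, tumour cells, neutrophils and macrophages.

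Lungs of female C57BL/6 mice, 8 weeks old, carried HKP1, a mouse lung adenocarcinoma line, after tail vein injection of 150000 cells. The 4 Gy group received 4 Gy on each of 3 days in a row, from day 10 to day 12, and the 0 Gy group was mock-treated. Harvest followed 24 to 48 h later, with 4 mice per treatment. Viable cells were separated by the leukocyte surface protein CD45, and their RNA was read with 10x Genomics 3′ single-cell chemistry. The tables hold 1 library per dose and sort, with no mark of which mouse a cell came from: CD45-negative cells at 4 Gy (4313 barcodes, 12448164 unique molecules or UMIs) and 0 Gy (5979 barcodes, 14885765 UMIs), and CD45-positive cells at 4 Gy (9608 barcodes, 36423571 UMIs) and 0 Gy (5415 barcodes, 24045901 UMIs). Every mouse carried the tumour, so no library comes from a lung without HKP1. Pairs of libraries shared 3 to 17 cell barcodes.

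With 1 library per group there is no replicate spread, no test was made and no p-value is given. Levels are CPM (the usual depth-scaled unit, here over the summed UMIs of a class in 1 library), and ratios are 4 Gy over 0 Gy. Each ratio carries an exact conditional binomial 95% interval, each level an exact Poisson one and each share an exact Clopper-Pearson one, and all cover counting error only. A member counted as measured had at least 10 UMIs over both libraries, and it is called higher or lower at a ratio of at least 1.5-fold. Counts of called members stand beside the share called over all measured genes. Because the members were chosen with earlier results of these data known, that comparison is a description and not a test.

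Cells entered a class by the number of its 8 marker genes with a UMI, with at least 3 needed. None of the 10 genes is a marker. The suffix -like marks a class called from markers only. The endothelial-like class held 3890 and 5307 cells at 4 Gy and 0 Gy, the fibroblast-like class 18 and 35, the tumour epithelial-like class 30 and 84, the neutrophil-like class 728 and 249, the interstitial macrophage-like class 128 and 57 and the alveolar macrophage-like class 36 and 17. The fibroblast-like, alveolar macrophage-like and tumour epithelial-like classes fall below 50 cells in at least 1 library, and their values are described with that limit. Cells near the threshold, with exactly 3 markers, numbered 23 and 53 in the endothelial-like class 44 and 9 in the neutrophil-like, 18 and 5 in the interstitial macrophage-like, 6 and 5 in the alveolar macrophage-like, 1 and 7 in the fibroblast-like and 5 and 35 in the tumour epithelial-like class. Leading genes were Ramp2, Cldn5 and Egfl7 in endothelial-like cells and Mgp, Dcn and Col3a1 in fibroblast-like cells. They were S100a9, S100a8 and Retnlg in neutrophil-like cells, and C1qa, C1qb and C1qc in interstitial macrophage-like cells. All of these but Mgp are markers used in the gate, so they give no separate check of the labels. A Cdkn2a UMI, a tumour epithelial marker here, was present in 22 of 30 and 57 of 84 tumour epithelial-like cells.

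A further rule left out cells that held 3 or more markers of a class of another lineage: 183 and 248 CD45-negative and 1483 and 768 CD45-positive barcodes at 4 Gy and 0 Gy. Tumour, alveolar, club and ciliated epithelial classes shared a lineage, as did macrophage, monocyte and dendritic classes. Fibroblast, pericyte and mesothelial classes also shared a lineage, and so did T and NK classes. The rule did not remove cells with markers of several classes within a lineage. This rule removed few UMIs of some members and most UMIs of others. In CD45-negative cells such mixed barcodes held 15.8% and 7.93% of Mmp15 UMIs, 12.7% and 28.0% of Timp3 UMIs, but 88.9% and 83.1% of Timp1 UMIs. In CD45-positive cells they held 50.5% and 57.4% of Mmp9 UMIs, 34.3% and 45.9% of Mmp12 UMIs and 17.6% and 9.91% of Adamts14 UMIs. They also held 49.5% and 51.1% of CD45-positive Mmp8 UMIs, and 50.6% and 60.8% of CD45-negative Mmp14 UMIs. Values in mixed cells or with them kept are given for Mmp15, Timp3, Timp1, Mmp9, Mmp12, Mmp8 and fibroblast-like Mmp14. For Adamts14 they are not given.

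Promoter sequences, 250 bases before to 50 after the annotated start, are shown for the endothelial pair Mmp15 and Timp3, the first called lower and the second higher in endothelial-like cells, and for the myeloid proteases Mmp12 (the downstream of its 2 listed starts) and Mmp8. They were read from RefSeq, build GRCm38.p6, in which 8 of the 10 genes had an entry, all strands 5′ to 3′ of the gene. Capitals mark matches on either strand to the AP-1 motif TGANTCA, to the TATA box, spelled TATAAA, and to the GC box, spelled GGGCGG, which do not overlap each other in these 4 windows.
Mmp15 (chr8:95352046-95352345, plus strand): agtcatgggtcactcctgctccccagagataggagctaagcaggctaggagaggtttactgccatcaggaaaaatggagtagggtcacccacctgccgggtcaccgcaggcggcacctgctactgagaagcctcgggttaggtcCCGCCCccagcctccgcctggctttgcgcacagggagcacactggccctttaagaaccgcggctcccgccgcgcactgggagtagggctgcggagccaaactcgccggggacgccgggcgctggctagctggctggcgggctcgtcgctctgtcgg
Timp3 (chr10:86300162-86300461, plus strand): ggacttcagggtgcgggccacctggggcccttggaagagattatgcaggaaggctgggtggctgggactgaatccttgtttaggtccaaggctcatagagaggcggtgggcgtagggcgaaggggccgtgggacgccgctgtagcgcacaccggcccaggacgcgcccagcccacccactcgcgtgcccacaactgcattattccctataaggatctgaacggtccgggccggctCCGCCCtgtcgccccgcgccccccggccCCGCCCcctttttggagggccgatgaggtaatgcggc
Mmp12 (chr9:7347124-7347423, plus strand): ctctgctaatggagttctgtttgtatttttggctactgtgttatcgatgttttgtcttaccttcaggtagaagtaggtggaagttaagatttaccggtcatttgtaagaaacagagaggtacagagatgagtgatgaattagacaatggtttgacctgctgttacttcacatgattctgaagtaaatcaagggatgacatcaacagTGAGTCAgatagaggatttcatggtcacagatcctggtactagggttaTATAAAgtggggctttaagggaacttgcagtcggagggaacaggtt
Mmp8 (chr9:7558179-7558478, plus strand): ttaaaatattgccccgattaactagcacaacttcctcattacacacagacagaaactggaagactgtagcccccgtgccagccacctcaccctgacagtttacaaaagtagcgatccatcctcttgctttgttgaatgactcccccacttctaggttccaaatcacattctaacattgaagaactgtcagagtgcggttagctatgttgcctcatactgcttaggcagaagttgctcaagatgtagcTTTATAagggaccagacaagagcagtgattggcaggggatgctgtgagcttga

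The Mmp15 window had 1 GC box and the Timp3 window 2, with no TATA box or AP-1 match in either, and their GC content was 66% and 67%. The Mmp12 window shown had 1 AP-1 match and 1 TATA box at a GC content of 40.7%, the window of its other start had 0 of each, and Mmp8 had 1 TATA box at 46%. Of 32851 promoters of the same length, 7.81% held an AP-1 match, 13.6% a TATA box and 35.7% a GC box. These letters are a description of the windows and say nothing of which factors bind there.

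In GENCODE vM21 on GRCm38, Mmp15 lies at chr8:95352268-95375080, Mmp14 at chr14:54431612-54445364 and Mmp9 at chr2:164940780-164955850, each with no overlapping gene. Mmp12 (chr9:7344381-7369499) and Mmp8 (chr9:7558456-7568485) both lie on chromosome 9, and Mmp12 overlaps Mmp1b on the other strand. Timp3 (chr10:86300372-86349506) overlaps Syn3 and Timp1 (chrX:20870166-20874735) overlaps Syn1, both on the other strand. Mmp19 overlaps Tmem198b and Gm47093 on the other strand. Timp2 overlaps Cep295nl, which lies on the same strand. Syn3 had 4 and 3 UMIs in endothelial-like cells at 4 Gy and 0 Gy, against 864 and 472 UMIs of Timp3.

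**Figure D1:**
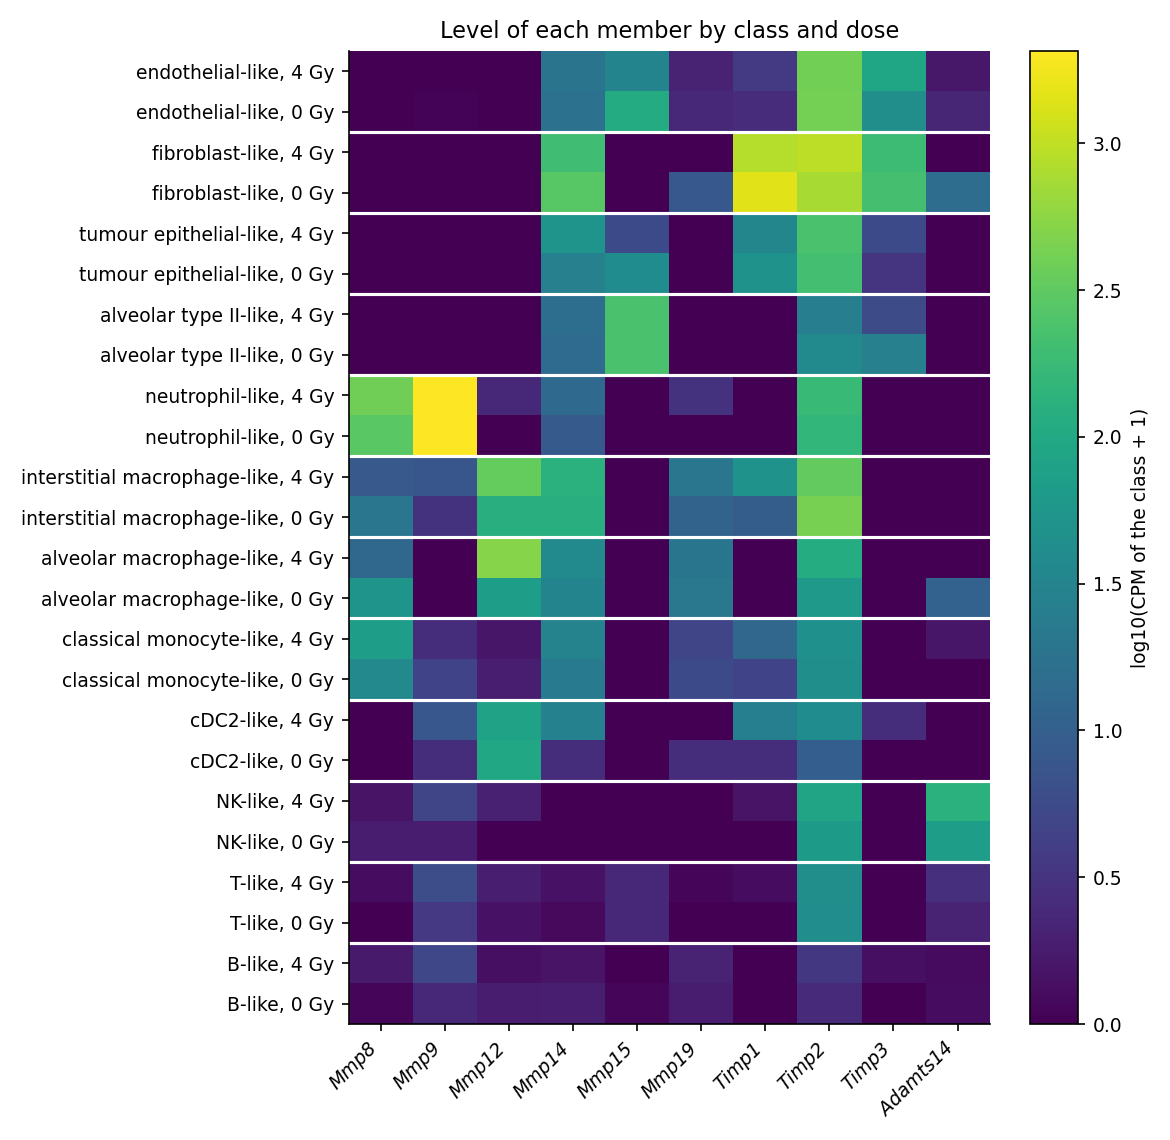
Level of each of the 10 genes (columns) in 12 classes at 4 Gy and 0 Gy (rows), as log10 of CPM of the class plus 1. Among the classes drawn, Mmp9 and Mmp8 are highest in neutrophil-like, Mmp15 in alveolar type II-like, Timp1 in fibroblast-like and Adamts14 in NK-like cells. Ciliated-like and alveolar type I-like cells are among the classes not drawn.

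The genes divided the lung between them. Mmp9 was at 2040 and 2064 CPM in neutrophil-like cells and at most 6.96 CPM in any other CD45-positive class of at least 15 cells at either dose. Mmp8 stood at 395 and 289 CPM in neutrophil-like cells and at 68.5 and 35.7 CPM in classical monocyte-like cells, which came next among classes of at least 50 cells. Mmp15 reached 230 and 326 CPM in ciliated-like cells (21 and 16 cells), and alveolar type II-like cells (24 and 42 cells) had 228.3 and 227.8 CPM, neighbours in the order whose intervals overlap at both doses, and endothelial-like cells came below them. Timp2, which also takes part in the activation of pro-MMP2 by Mmp14, was the most widely spread inhibitor. It had 405 and 419 CPM in endothelial-like, 332 and 435 CPM in interstitial macrophage-like and 233 and 207 CPM in tumour epithelial-like cells. Fibroblast-like cells had more, 961 and 770 CPM. At 0 Gy the highest levels of Timp2 and Timp3 were in alveolar type I-like cells (17 cells), at 1443 and 452 CPM. Adamts14 had 129 and 72.1 CPM in NK-like cells and at most 1.9 and 1.3 CPM in the T-like, B-like and endothelial-like classes.

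Endothelial-like cells of the CD45-negative sort were the largest class. Mmp15, the membrane-anchored MT2-MMP, was lower in irradiated lungs and Timp3, the inhibitor that stays bound to the matrix, was higher. Mmp15 had 297 UMIs at 4 Gy and 1197 UMIs at 0 Gy, which is 30.7 and 108 CPM and a ratio of 0.28 (95% interval 0.25 to 0.32). Timp3 had 864 and 472 UMIs, 89.3 and 42.6 CPM, a ratio of 2.09 (1.87 to 2.35). The other inhibitor at high level, Timp2, had 3923 and 4634 UMIs, 405 and 419 CPM and a ratio of 0.97 (0.93 to 1.01).

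Neither difference came from a few cells, and with mixed cells kept the ratios were 0.293 and 2.11. Mmp15 was found in 265 of 3890 and 1015 of 5307 cells, with at most 4 UMIs in a cell in both libraries, and Timp3 in 591 and 363 cells. After each cell was thinned to 1000 UMIs, 2.79% (2.28% to 3.37%) of 3731 cells at 4 Gy and 10.7% (9.89% to 11.6%) of 4904 cells at 0 Gy had a Mmp15 UMI. The unthinned shares were 6.81% and 19.1%. For Timp3 the thinned shares were 6.97% (6.17% to 7.83%) and 3.18% (2.71% to 3.71%), and the unthinned ones 15.2% and 6.84%. T-like cells, which should lack Mmp15, had a thinned share of 0.0997% and 0.0943%, at median depths of 3119.5 and 3807 UMIs against 2049.5 and 1871 UMIs in endothelial-like cells. Those T-like cells are of the CD45-positive sort and so give no background for the CD45-negative libraries. In the CD45-negative libraries 0 of 18 and 0 of 30 thinned fibroblast-like cells had a Mmp15 UMI, which allows up to 18.5% and 11.6% by the Clopper-Pearson limit, so a background was not measurable there.

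In the same class 7 of the 10 genes were measured, 2 were called higher (Timp3 and Timp1) and 2 lower (Mmp15 and Adamts14), where 10.3% of 16104 measured genes were higher and 7.26% lower. Timp1 rested on 26 and 18 UMIs with a ratio of 1.65 (0.87 to 3.20), and Adamts14 on 6 and 14 UMIs with a ratio of 0.49 (0.15 to 1.36), so that both intervals include 1. Mmp14 was at 17.9 and 16.1 CPM, a ratio of 1.11 (0.90 to 1.38), and Mmp19 at 1.1 and 1.4 CPM. The 7 measured genes had a median log2 ratio of -0.05, against 0.03 over all measured genes.

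The endothelial subsets differed in size of the Mmp15 and Timp3 differences, and no test compared them. Mmp15 in remaining capillary cells was at 28.5 CPM at 4 Gy and 122 CPM at 0 Gy, a ratio of 0.23 (0.19 to 0.28), and in arterial cells at 28.5 and 112 CPM, a ratio of 0.25 (0.20 to 0.33). In aerocytes, the wide gas-exchange capillary cells, it was at 40.5 and 66.0 CPM, a ratio of 0.61 (0.45 to 0.84), and in venous cells at 36.4 and 71.0 CPM on 12 and 23 UMIs, a ratio of 0.51 (0.23 to 1.07). Timp3 had ratios of 2.43 (2.01 to 2.96) in capillary, 3.12 (2.43 to 4.05) in arterial and 2.38 (1.54 to 3.74) in venous cells. In aerocytes Timp3 was at 137 and 102 CPM, a ratio of 1.35 (1.11 to 1.65), below the 1.5-fold threshold. All 4 subset ratios pointed the same way for each gene. Of the measured members, capillary cells had 2 of 6 higher and 1 lower (10.1% and 8.26% of all measured genes there), arterial cells 2 of 5 higher and 1 lower (11.9% and 7.4%), venous cells 1 of 3 higher and 1 lower (17.2% and 15.4%), and aerocytes 0 of 5 higher and 2 lower (13.9% and 7.17%).

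Lyve1, a hyaluronan receptor gene, had a UMI in 1933 of 2483 capillary cells at 4 Gy and 1694 of 3260 at 0 Gy. The 2 libraries thus differed in the share of cells with a Lyve1 UMI, and what lies behind that difference was not tested. Within capillary cells with a Lyve1 UMI Mmp15 had a ratio of 0.24 (0.19 to 0.30) and Timp3 of 2.49 (1.96 to 3.18). Within those without it the ratios were 0.27 (0.19 to 0.39) and 1.91 (1.29 to 2.81). The CD45-positive sort also held endothelial-like cells, 50 at 4 Gy and 44 at 0 Gy. There Mmp15 had 2 and 8 UMIs, 34.5 and 120 CPM, a ratio of 0.29 (0.03 to 1.44), and Timp3 had 5 and 2 UMIs, 86.3 and 29.95 CPM. These libraries are separate from the CD45-negative ones, though both sorts come from the same treatment cohort, and the counts are small. In mixed cells led by endothelial markers (110 and 132 cells), Mmp15 had a ratio of 0.54 (0.31 to 0.91) and Timp3 of 2.31 (1.44 to 3.82).

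**Figure D2:**
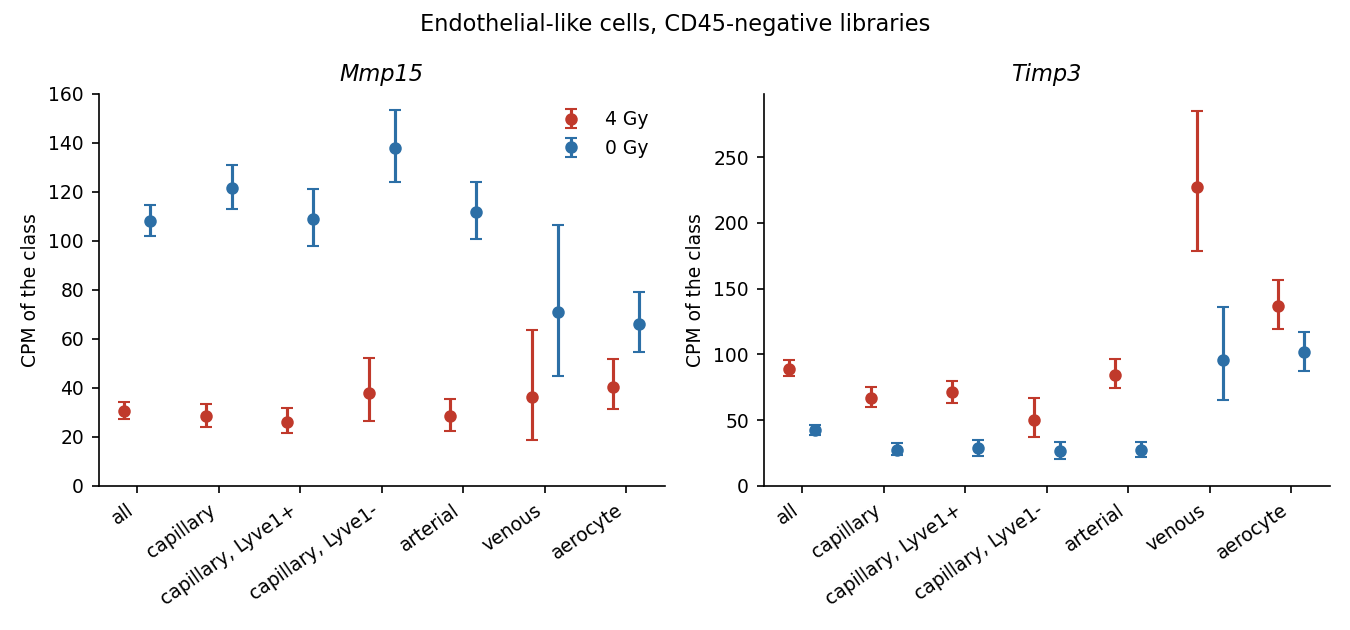
CPM of Mmp15 (left) and Timp3 (right) in endothelial-like cells and their subsets, 4 Gy left of 0 Gy, 1 library per point, with bars of the exact Poisson 95% interval. Mmp15 is lower at 4 Gy in every subset shown, with overlapping intervals in venous cells, and Timp3 is higher at 4 Gy, with the smallest ratio in aerocytes.

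Across 19 class-by-library sums of at least 50 cells, the genes with a pattern most like that of Mmp15 were Fgf1 (Pearson r = 0.99), Tspan15 (r = 0.98) and Tm4sf1 (r = 0.98), and the genes most like Timp3 were Tril, Ptpru and Myrip (each r = 0.99). For Mmp8 they were Rab44 (r = 0.97), Slfn4 (r = 0.96) and Gm48786 (r = 0.94), for Mmp12 Stra6l, 4930512J16Rik and Slc7a2 (r = 0.98, 0.97 and 0.96), for Mmp14 Vdac2, Dpp7 and Atf5 (r = 0.91, 0.91 and 0.90) and for Timp1 Atpif1, Eef1akmt4 and Gm7332 (r = 0.87, 0.86 and 0.84). The points share libraries and depth, and a correlation over them is a description. None of them came from fibroblast-like, ciliated-like or alveolar type II-like cells, the classes with most Timp1 or Mmp15.

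Other genes of the protease system were counted in endothelial-like cells from a list of 61 names, of which 48 were in the tables. Of 37 measured, 7 were higher and 4 lower, against the 10.3% and 7.26% given above. Serpine2, an inhibitor of thrombin and plasminogen activators, had 87 and 24 UMIs, 9.0 and 2.2 CPM, a ratio of 4.15 (2.61 to 6.81). Mmp2, the gelatinase that Mmp14 activates, had 35 and 12 UMIs, a ratio of 3.34 (1.69 to 7.06). Among the lower genes Timp4 had 2 and 12 UMIs, a ratio of 0.19 (0.02 to 0.86), and Adam19 had 45 and 82 UMIs, a ratio of 0.63 (0.43 to 0.91).

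Timp1, a soluble inhibitor of most MMPs, was highest in fibroblast-like cells, and the direction of its dose difference turned with the cells counted. The class had 18 and 35 cells, and Timp1 had 79 and 205 UMIs at 4 Gy and 0 Gy, 872 and 1462 CPM, a ratio of 0.60 (0.45 to 0.78). Of those, 158 of the 205 UMIs at 0 Gy were in 1 cell, and all 79 at 4 Gy were in 5 cells. Without the highest cell of each library the ratio was 1.53 (0.99 to 2.37), on 43 and 47 UMIs. With mixed cells kept it was 1.29. Of the cells left out, 13 and 13 held markers of both fibroblasts and classical monocytes, a list that includes Fn1 and Vcan. Mixed cells led by fibroblast markers (25 and 23 cells) had Timp1 at 1361 and 813 CPM on 576 and 307 UMIs, a ratio of 1.67 (1.46 to 1.93), the other direction. Mixed cells led by mesothelial markers (14 and 29 cells), most of which also had keratin genes, held 267 and 546 Timp1 UMIs, 947 and 1079 CPM, a ratio of 0.88 (0.76 to 1.02).

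The other measured members in fibroblast-like cells were within 1.5-fold. Timp2 was at 961 and 770 CPM, a ratio of 1.25 (0.93 to 1.67), and Timp3 at 188 and 214 CPM, a ratio of 0.88 (0.45 to 1.64). Mmp14 was at 199 and 285 CPM on 18 and 40 UMIs, a ratio of 0.70 (0.38 to 1.24). Mmp14 was called lower at 0.58 with mixed cells kept, 0.63 with median-of-ratios scaling, 0.40 as a mean over cells and 0.60 without the highest cell of each library. In the mixed cells led by fibroblast markers Mmp14 was at 284 and 527 CPM, a ratio of 0.54 (0.43 to 0.68), and Timp3 at 75.6 and 151 CPM, a ratio of 0.50 (0.31 to 0.79). Timp1 was the 1 of 4 measured genes called, lower, where 23.1% of 4380 measured genes were lower and 21.4% higher. With 1 of 4 called, the members do not stand out from that share.

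Tumour epithelial-like cells held 4 measured members. Timp2 was at 233 and 207 CPM on 51 and 93 UMIs, a ratio of 1.12 (0.78 to 1.60). Mmp15 had 1 UMI at 4 Gy and 18 at 0 Gy, 4.6 and 40.1 CPM, a ratio of 0.11 (0.00 to 0.72), and it was found in 1 and 10 cells. Within cells with a Cdkn2a UMI the counts were 0 and 10. Without barcodes that Scrublet marked as doublets they were 1 and 9, a ratio of 0.21, and the mean over cells gave 0.29. Mmp14 had 11 and 12 UMIs, a ratio of 1.88 (0.75 to 4.65), and Timp1 7 and 22 UMIs, a ratio of 0.65 (0.24 to 1.58). That is 1 gene called higher and 2 lower, where 20.7% of 7009 measured genes were higher and 20.1% lower. In the same libraries Mmp15 had 46 and 67 UMIs in alveolar type II-like cells, a ratio of 1.002 (0.67 to 1.48), where 13.8% of 5648 genes were higher and 24.1% lower.

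**Figure D3:**
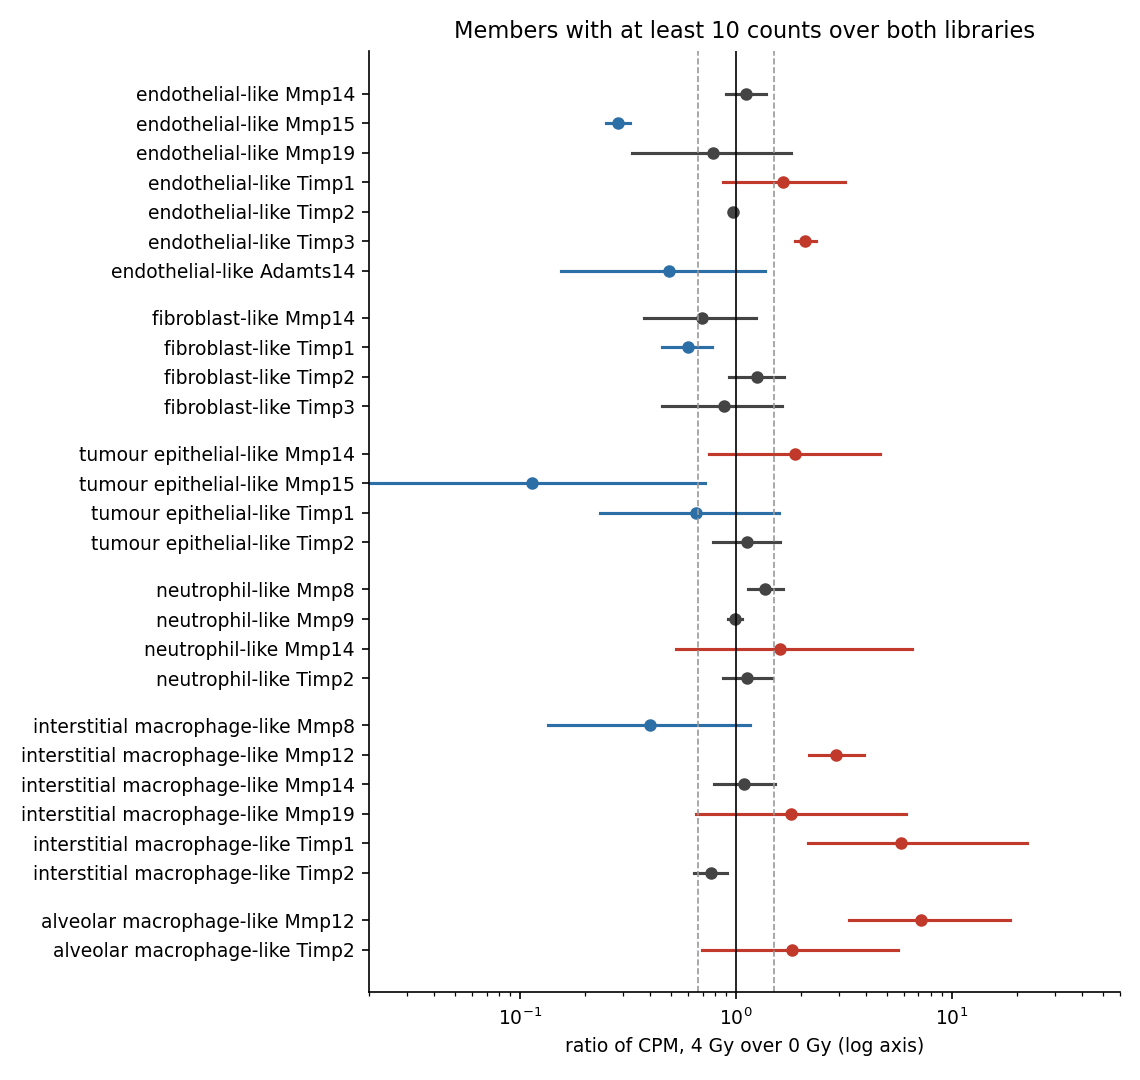
Ratio of CPM, 4 Gy over 0 Gy, on a log axis for every member with at least 10 UMIs over both libraries in 6 classes, with the exact conditional binomial 95% interval of counting error. Red marks called higher, blue called lower and grey within 1.5-fold, which the dashed lines show, and the left end of the tumour epithelial Mmp15 interval lies off the axis. Endothelial Mmp15 at 0.28 and Timp3 at 2.09 have the narrowest intervals among the called genes.

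The neutrophil-like class of the CD45-positive libraries held the highest gelatinase level, and it was close between doses. Mmp9 had 2957 and 1065 UMIs, 2040 and 2064 CPM, a ratio of 0.99 (0.92 to 1.06). Timp2 had 252 and 80 UMIs, 174 and 155 CPM, a ratio of 1.12 (0.87 to 1.46). Mmp8 had 572 and 149 UMIs, 395 and 289 CPM, a ratio of 1.37 (1.14 to 1.65), within 1.5-fold, and 1.51 (1.25 to 1.85) without the highest cell of each library. Of 4 measured members only Mmp14 was called, higher, on 18 and 4 UMIs and a ratio of 1.60 (0.53 to 6.51), where 18.3% of 8910 measured genes were higher and 13% lower.

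Mmp8 and Mmp9 differed in which neutrophils carried them. Retnlg, a neutrophil gene that was also a marker of the class, had a UMI in 393 of 728 and 160 of 249 cells, and this split was chosen after values were seen. In cells with a Retnlg UMI Mmp8 was at 640 and 437 CPM on 552 and 147 UMIs, and in cells without it at 34.1 and 11.1 CPM on 20 and 2 UMIs. Mmp9 was at 1830 and 1947 CPM with Retnlg and 2350 and 2283 CPM without it. The Mmp8 ratio in cells with Retnlg was 1.46 (1.22 to 1.77). After thinning to 1000 UMIs, 18.7% (15.8% to 21.9%) and 18.0% (13.3% to 23.5%) of neutrophil-like cells had a Mmp8 UMI and 76.6% and 77.8% a Mmp9 UMI, against 26.8% and 25.3% and 86.4% and 87.1% unthinned. B-like cells, at median depths of 2219.5 and 2735.5 UMIs, had thinned Mmp9 shares of 0.158% and 0.190%, and neutrophil-like cells had median depths of 1744 and 1889 UMIs. Both genes were found together in 103 and 37 thinned cells, where the product of their shares gives 95.8 and 33.5. In mixed cells led by neutrophil markers (221 and 81 cells) Mmp8 had a ratio of 1.46 (1.19 to 1.80) and Mmp9 one of 1.13 (1.02 to 1.25). Of 20 measured genes of the protease list in the class 4 were higher and 0 lower, the higher ones near the 18.3% of all genes, among them the cathepsin inhibitor Cstb at 591 and 308 CPM, a ratio of 1.92 (1.62 to 2.29), and cathepsin L, Ctsl, with a ratio of 2.01 (1.27 to 3.32).

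**Figure D4:**
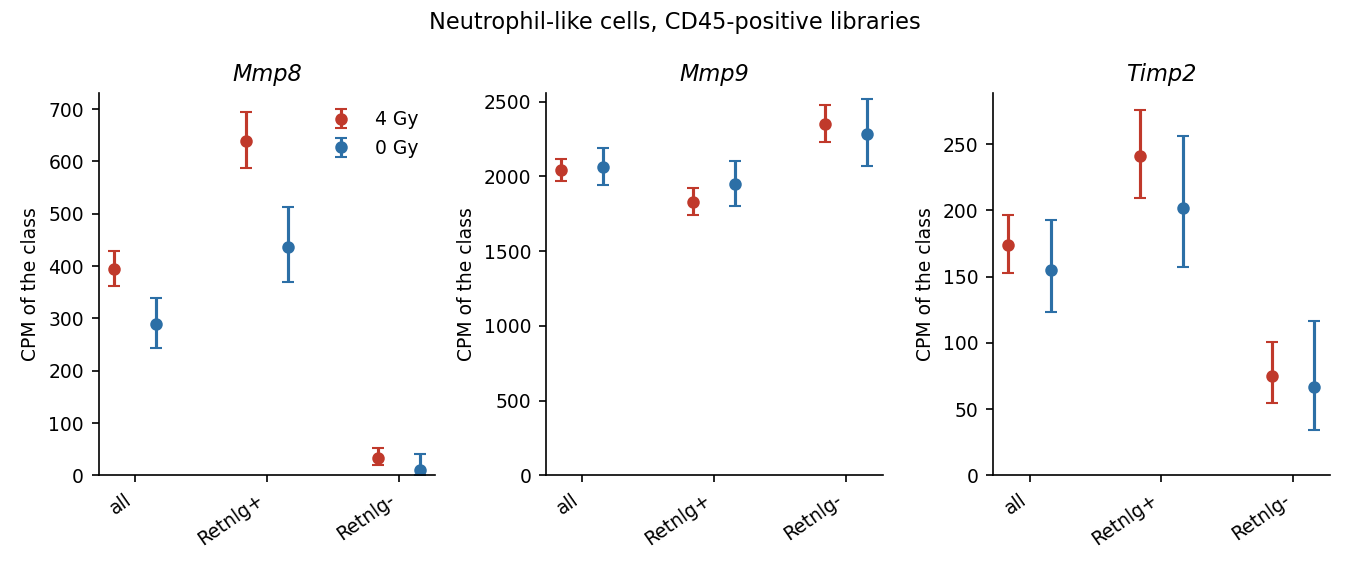
CPM of Mmp8, Mmp9 and Timp2 in neutrophil-like cells and in those with (Retnlg+) and without (Retnlg-) a Retnlg UMI, 4 Gy left of 0 Gy, with bars of the exact Poisson 95% interval. Mmp8 sits at 640 and 437 CPM in Retnlg+ cells and at 34.1 and 11.1 CPM in Retnlg- cells, while Mmp9 is high in both.

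Macrophage-like cells carried Mmp12, with its UMIs in few cells. It was not confined to them, since cDC2-like dendritic cells had 80.0 and 96.3 CPM at 4 Gy and 0 Gy. At 0 Gy the intervals of cDC2-like and interstitial macrophage-like cells overlapped. In interstitial macrophage-like cells Mmp12, the elastase of macrophages, had 362 and 56 UMIs, 342 and 118 CPM, a ratio of 2.90 (2.18 to 3.91). It was found in 28 of 128 and 8 of 57 cells, and the highest cell held 143 and 26 UMIs. Thinned shares were 11.4% (6.21% to 18.7%) and 3.85% (0.47% to 13.2%), with overlapping intervals, and unthinned ones 21.9% and 14.0%. The 5 highest cells held 71.8% and 94.6% of the UMIs. Counting intervals treat UMIs as independent and are therefore too narrow for such a gene. Without the highest cell of each library the levels were 209 and 64.4 CPM, a ratio of 3.24 (2.21 to 4.92). Mixed cells led by the same markers (41 and 21 cells) went the other way, with 129 and 210 CPM, a ratio of 0.61 (0.44 to 0.85). Whole CD45-positive libraries held 928 and 388 Mmp12 UMIs, only 25.5 and 16.1 CPM. Of these, 96 and 82 UMIs were in cells with tied or too few markers, which belong to no class.

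In the same class Timp1 had 52 and 4 UMIs, 49.1 and 8.4 CPM, a ratio of 5.83 (2.15 to 22.2). Of the 52 UMIs 32 were in 1 cell, and the 4 at 0 Gy were in 1 cell, with 11 and 1 cells holding any. Cells with a UMI of Arg1, the arginase gene, numbered 47 of 128 and 5 of 57, and 50 of the 52 Timp1 UMIs at 4 Gy were in them. Within these cells the Timp1 ratio was 2.35 (0.86 to 8.94), on 50 and 4 UMIs. Summed markers of classical monocytes stood at 2582 and 1416 CPM in the class, and their part in the result was not tested. Timp2 was at 332 and 435 CPM, a ratio of 0.76 (0.64 to 0.91), with 40 of 207 UMIs at 0 Gy in 1 cell. Without the highest cell of each library the Timp2 ratio was 0.86 (0.71 to 1.04). In cells with an Arg1 UMI, only 5 of them at 0 Gy, Timp2 was at 250.02 and 626 CPM, a ratio of 0.40 (0.28 to 0.58). In cells without one it was at 382 and 399.7 CPM, a ratio of 0.96 (0.78 to 1.17), and no test compared the 2 groups of cells. In the whole class Mmp14 was at 128 and 118 CPM, a ratio of 1.09 (0.79 to 1.51). Mmp19 had 20 and 5 UMIs, a ratio of 1.79 (0.65 to 6.12). Mmp8 was the 1 member called lower, at 7.5 and 18.9 CPM on 8 and 9 UMIs, with 7 of the 9 in 1 cell. Of the 6 measured members 3 were higher and 1 lower, where 17% of 9531 measured genes were higher and 12.3% lower.

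Alveolar macrophage-like cells (36 and 17) had Mmp12 at 513 and 71.0 CPM on 83 and 7 UMIs. All 83 UMIs at 4 Gy were in 1 cell, so that the ratio of 7.22 describes that cell. Both measured members, Mmp12 and Timp2, were above 1.5-fold, where 21.5% of 4221 genes were higher and 18.6% lower. Timp2 rested on 18 and 6 UMIs, 111 and 60.9 CPM, with overlapping intervals. In the CD45-negative libraries this class had 16 and 12 cells and 16 and 0 Mmp12 UMIs, 15 of the 16 in 1 cell.

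**Figure D5:**
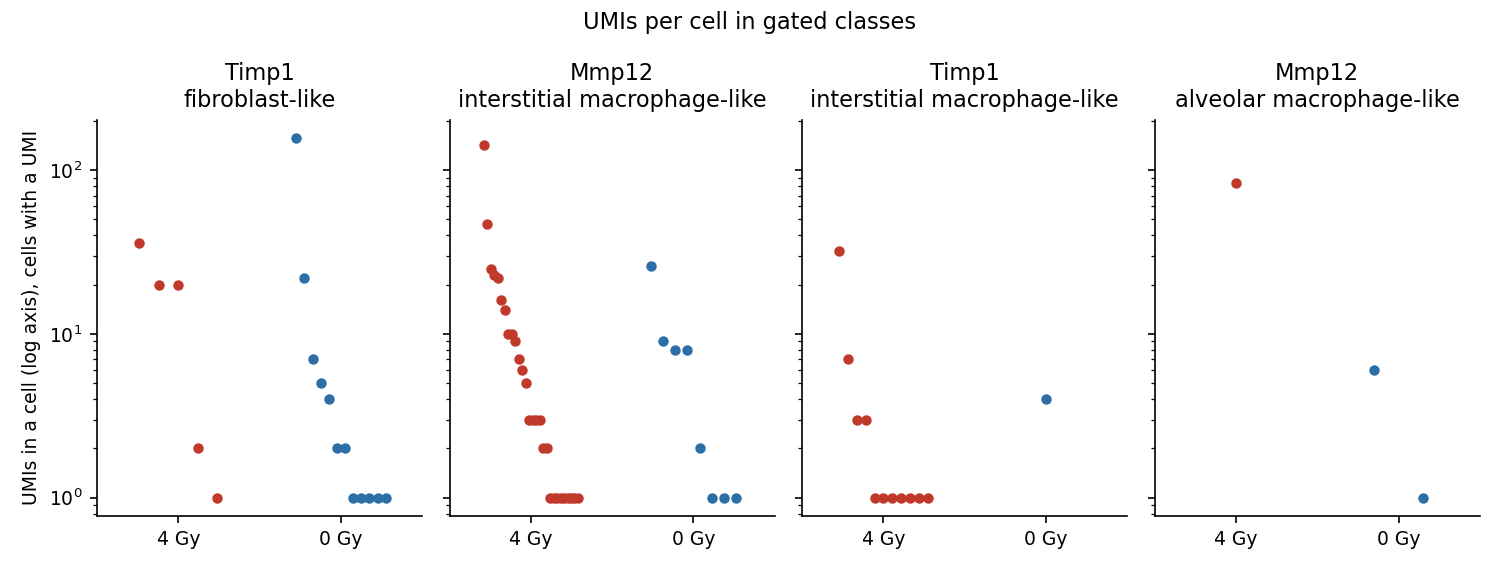
UMIs of Timp1 in fibroblast-like, Mmp12 and Timp1 in interstitial macrophage-like and Mmp12 in alveolar macrophage-like cells, 1 point per cell with a UMI, 4 Gy left of 0 Gy, on a log axis. Single cells hold 158 of 205 Timp1 UMIs in fibroblast-like cells at 0 Gy and all 83 Mmp12 UMIs in alveolar macrophage-like cells at 4 Gy.

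Over whole CD45-positive libraries, Timp1 had 335 UMIs in 94 of 9608 barcodes at 4 Gy and 23 UMIs in 11 of 5415 barcodes at 0 Gy, 9.2 and 0.96 CPM. Of these 99 and 13 were in cells of 1 class and 221 and 1 in mixed cells, 80 of the 221 in 4 cells led by mesothelial markers. In classical monocyte-like cells (337 and 189) Timp1 had 20 and 4 UMIs, a ratio of 3.09 (1.04 to 12.4), and Mmp8 had 121 and 39 UMIs in 64 and 30 cells, a ratio of 1.92 (1.33 to 2.83). Thinned to 1000 UMIs per cell that Mmp8 ratio was 1.41, on 20 and 8 UMIs, and no longer called. In cDC2-like dendritic cells (60 and 49), Timp1 had 15 and 1 UMIs in 6 and 1 cells, Mmp14 had 16 and 1 in 10 and 1 cells, and Timp2 had 23 and 5, of which 17 were in 1 cell. Mmp12 had 46 and 55 UMIs there, in 9 and 10 cells, and was within 1.5-fold. Called higher were 2 of 5 measured members in classical monocyte-like cells, where 15.7% of 10587 genes were higher and 8.6% lower, and 3 of 4 in cDC2-like cells, where 18.2% of 8406 were higher and 14.7% lower. Mmp9 had 34 and 11 UMIs in T-like cells (5.0 and 2.5 CPM) and 33 and 9 in B-like cells (4.0 and 1.4 CPM), far below neutrophil-like cells, which made up 7.58% and 4.60% of these libraries. The part of that share in these low levels was not tested. T-like cells had 2 of 4 measured members higher and 0 lower (9.51% and 8.83% of 14202 genes), and B-like cells 2 of 4 higher and 1 lower (10.8% and 6.2% of 14248 genes).

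NK-like cells (842 and 396) were the class with most Adamts14, whose product cuts the amino-terminal propeptide from fibrillar procollagen. It had 258 and 91 UMIs, 129 and 72.1 CPM, a ratio of 1.79 (1.40 to 2.30). A UMI was found in 212 and 77 cells, at most 3 in a cell in both libraries. Thinned shares were 12.6% (10.4% to 15.1%) of 823 cells and 8.01% (5.51% to 11.2%) of 387 cells, whose intervals overlap, and unthinned ones 25.2% and 19.4%. T-like cells had thinned shares of 0.249% and 0 of 1060, which allows up to 0.347% by the Clopper-Pearson limit. Adamts14 was the 1 of 2 measured members called, where 14.6% of 11324 genes were higher and 8.25% lower. Timp2 in NK-like cells had a ratio of 1.37 (1.05 to 1.82).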

How the data were processed

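Members, lists and gates were chosen with earlier results of these data known. Each library's deposited table, made by the authors, holds log2 values per cell. The submitters' processing notes name mm10, STAR, Seurat and Partek, with no version or role. Undoing the log2(CPM + 1) scale gave CPM per cell, at least 99.999% of which lay within 0.02 of a whole number of that cell's lowest value, and these whole numbers were used as UMIs. No barcode was removed for quality. Cells were gated on 24 classes of markers, ties and cells with 3 or more markers of another lineage were left out, and barcodes marked by Scrublet (scanpy 1.11.5; 149 and 286 CD45-negative, 739 and 235 CD45-positive at 4 Gy and 0 Gy) were left out as an alternative. UMIs were summed per class and library with Python 3.11.15, numpy 2.4.6, scipy 1.17.1 and pandas 2.3.3. Log2 ratios of lists add 5 CPM. Named genes were all members, and in each class of at least 50 cells the 3 highest and 3 lowest called genes of the pathway list, of which a selection is printed and 1 is not reported here, plus the 3 most alike by Pearson r for Mmp15, Timp3, Timp1, Mmp14, Mmp12 and Mmp8. Alternatives are in the closing section, and 0 per-sample columns were left unused.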

Additional observations from a re-analysis of the deposited data

Results flagged for a closer look

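Timp1 ratios lay on both sides of 1 between classes, and the differences between classes were not tested. Timp1 was at 0.596 in fibroblast-like cells, at 5.83 in interstitial macrophage-like, 3.09 in classical monocyte-like and 14.9 in cDC2-like cells, the last on 15 and 1 UMIs. The fibroblast-like ratio changed side, to 1.53 without the highest cell of each library and 1.29 with mixed cells kept. In interstitial macrophage-like cells 32 of the 52 Timp1 UMIs at 4 Gy were in 1 cell. Timp2 was at 0.609 in alveolar type I-like cells (11 and 17 cells, 31 and 67 UMIs) and 4.57 in cDC2-like cells, where 17 of 23 UMIs at 4 Gy were in 1 cell. Timp1 in classical monocyte-like cells was 6.79 without the highest cell of each library, on 11 and 1 UMIs, and 4.58 with mixed cells kept. Timp1 in interstitial macrophage-like cells was 9.06 with mixed cells kept, and Timp2 in cDC2-like cells was 2.004 without the highest cell.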

How the results depend on the processing

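Endothelial Mmp15 kept its direction in all 17 alternatives (0.23 to 0.61) and Timp3 too (1.35 to 3.12). Mmp15 moved to 0.24 thinned to 500 UMIs, 0.51 with 50 CPM added, 0.61 in aerocytes, 0.51 in venous, 0.23 in capillary and 0.24 in Lyve1-positive capillary cells. Timp3 moved to 2.35 thinned to 1000 UMIs, 1.503 with 50 CPM added, 1.35 in aerocytes, 3.12 in arterial, 2.38 in venous, 2.43 in capillary and 2.49 in Lyve1-positive capillary cells. Fibroblast Timp1 was 1.29 with mixed cells kept and 1.53 without the highest cell of each library, both reversed, 0.94 with monocyte genes ignored, 0.42 thinned to 1000 and 0.22 thinned to 500 UMIs. Mmp8 in neutrophil-like cells without Retnlg was 3.06, and Mmp9 with mixed cells kept 1.06. In interstitial macrophage-like cells Mmp12 was 1.68 with mixed cells kept and Timp1 1.70 with 50 CPM added. Reversed values in small counts were Mmp12 in alveolar macrophage-like cells, 0.49 thinned to 500 UMIs and 0 without the highest cell, Timp2 in cDC2-like cells, 0.90 with 4 markers, and Timp1 in classical monocyte-like cells, 0 thinned to 500 UMIs. Calls lost in other results were Mmp8 in classical monocyte-like cells (1.41 thinned to 1000 UMIs, 1.38 with 50 CPM added, against 3.66 thinned to 500), Adamts14 in NK-like cells (1.47 with 50 CPM added), Timp1 in cDC2-like cells (1.47 with 50 CPM added) and, in tumour epithelial-like cells, Mmp14 (1.31 with 50 CPM added) and Timp1 (0.85 with mixed cells kept). Mmp15 in tumour epithelial-like cells was 0.22 with 2 markers. The settings on the highest cell, Arg1, Retnlg, Cdkn2a, 500 UMIs and monocyte genes were chosen after seeing the data. The causes were not tested beyond what each setting itself removes. Median-of-ratios scaling shifted all genes by 0.14 (log2) in fibroblast-like, 0.15 in tumour epithelial-like and -0.13 in alveolar macrophage-like cells. Counts of the protease list also moved, over 2 alternatives each. They were 4 to 8 higher and 2 to 10 lower in endothelial-like and 3 to 9 higher and 0 to 4 lower in neutrophil-like cells. In interstitial macrophage-like cells they were 1 to 5 higher and 3 to 9 lower. The shares over all genes under those alternatives are not given here. No paired analysis was possible because each group has 1 library. Classes under 50 cells and genes under about 10 UMIs limit what can be seen.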

Other observations

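Genes of the protease list outside the members were also counted in myeloid cells. In classical monocyte-like cells 6 of 22 measured list genes were higher and 0 lower, where 15.7% of all measured genes were higher and 8.6% lower. There cathepsin K, Ctsk, had 102 and 7 UMIs, 57.8 and 6.4 CPM, a ratio of 9.01 (4.22 to 23.0), and cathepsin D, Ctsd, had 868 and 214 UMIs, a ratio of 2.51 (2.16 to 2.93). How many cells held the Ctsk UMIs is not given here. Ctsk was among the leading genes of alveolar macrophage-like cells, and Chil3, a marker of that class, led the classical monocyte-like class. The part of alveolar macrophage genes in the Ctsk ratio was not tested. In interstitial macrophage-like cells, 4 of 25 were higher and 6 lower, where 17% of all measured genes were higher and 12.3% lower. There Serpinb2, the plasminogen activator inhibitor PAI-2, had 22 and 0 UMIs. Adam19 had 5 and 9 UMIs there, a ratio of 0.25 (0.07 to 0.83).

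Serpine2 was higher in several classes, with 35 and 5 UMIs in capillary, 16 and 2 in arterial and 10 and 1 in aerocyte cells, and 53 and 9 UMIs in NK-like cells, a ratio of 3.71 (1.82 to 8.56). Urokinase, Plau, had 114 and 67 UMIs in aerocytes, 71.1 and 37.2 CPM, a ratio of 1.91 (1.40 to 2.63), and 19 and 2 UMIs in capillary cells.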
